A study of Mus musculus with 30 samples.

Results

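The 36 genes described here encode proteins that copy DNA, drive the cell into mitosis or carry mitosis out, and their messages are widely read as a sign of dividing cells. They were chosen as a fixed list of S-phase and mitosis genes matched by symbol to the rows of 5 count tables, and all 36 were found among 48709 gene rows. RNA sequencing was done on brain, kidney, liver, quadriceps femoris muscle and spleen of adult C57BL/6 mice. In each tissue 3 libraries came from wild-type (WT) mice and 3 from Ctcf+/- mice, which are haploinsufficient for the chromatin factor CTCF, so that 10 groups and 30 libraries were compared. The labels name no treatment and do not describe the targeted Ctcf allele. The series says that the 5 tissues came from 3 WT and 3 Ctcf+/- mice, so libraries of different tissues are not independent. Fits across tissues nevertheless take them as independent. The labels give libraries of different tissues the same replicate numbers without saying that equal numbers mark the same mouse. The p-values thus measure the spread between these libraries.

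A dividing cell first loads the ring-shaped MCM helicase onto replication origins, a step called licensing, and then copies its DNA with the help of the sliding clamp PCNA and of newly made deoxynucleotides. E2F transcription factors switch on the licensing and DNA synthesis genes at the start of S phase, while MYBL2 and FOXM1, acting with the MuvB complex, switch on the later genes of G2 and mitosis. Cyclin A and cyclin B then activate the kinase CDK1, the Aurora, Polo and checkpoint kinases build and check the spindle, and the anaphase-promoting complex ends mitosis by marking cyclin B for destruction. In the adult, the spleen of the mouse holds dividing red-cell precursors and lymphocytes, whereas neurons and muscle fibres no longer divide and most liver and kidney cells divide rarely.

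The libraries held 49819907 to 131645999 assigned fragments, so that 3 counts, the limit that a count of 0 allows, corresponded to 0.0228 to 0.0602 CPM, the usual scale of counts relative to library size. Ctcf messages in the Ctcf+/- groups were 61.4% to 67.2% of the WT mean in the 5 tissues, and every Ctcf+/- library lay below every WT library of its tissue. This drop passed the genotype test in brain (adjusted p = 0.0259) but not in the other tissues. The summed CPM of 5 identity markers was higher in the labelled tissue than in any library of another tissue for all 5 lists, for example 1701 to 2206 for lymphocyte and macrophage genes in spleen against at most 79.4 elsewhere. Traces of other tissues in spleen differed by genotype. The liver sum there was 21.4 to 27.5 CPM in WT and 0.0629 to 0.241 CPM in Ctcf+/-. The kidney sum was 0.118 to 0.296 CPM in WT and 2.64 to 5.4 CPM in Ctcf+/-. The source of these traces was not tested. In bulk tissue, fewer cells of a type and less RNA per cell cannot be told apart. Counting ignored strand, and 10 of the 36 genes share exon sequence with a neighbouring gene, most of all Kif20a with Cdc23 (33.2% of its exon length) and Ube2c with the muscle troponin gene Tnnc2 (22.8%), so the values of these are less certain.

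All 36 genes were higher in WT spleen than in each of the other 4 WT tissues. Levels are given as fragments per kilobase of exon, scaled to the library (FPKM), a scale on which genes of different length can be compared. The test was edgeR's quasi-likelihood test on the counts of the 15 WT libraries, and a gene is said to be called when its p-value adjusted over all genes tested is under 0.05. Against the mean of the other 4 tissues, the median difference of the 36 genes was 5.01 on the log2 scale, with a range of 2.64 to 7.25, while the median of all 22933 genes tested was -0.21. All 36 were called higher in that comparison, where 38% of all genes were. They were also called higher in spleen than in brain, kidney, liver and muscle singly, where 37%, 36.3%, 37.7% and 38.1% of all genes were called higher. The 15 Ctcf+/- libraries gave the same count, 36 of 36 against 38.9% of all genes, with a median difference of 4.44.

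**Figure D1:**
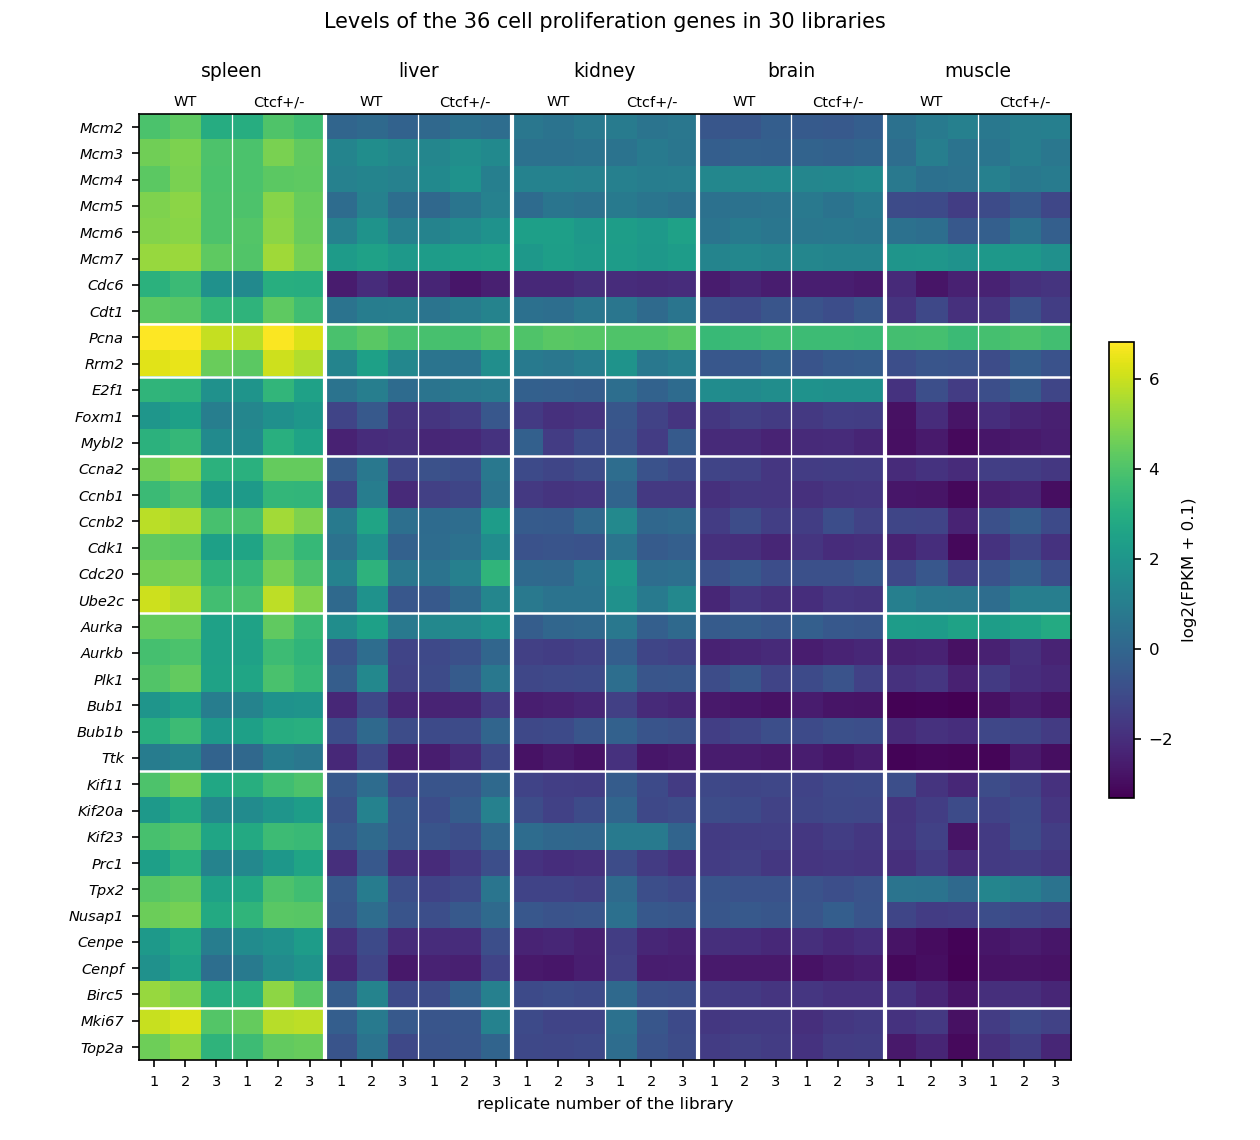
Colour gives log2(FPKM + 0.1) of each of the 36 genes (rows, in the order licensing, DNA synthesis, transcription factors, cyclins with Cdk1 and the anaphase-promoting complex, mitotic kinases, spindle and centromere, chromosome) in each of the 30 libraries (columns, by tissue, genotype and replicate number). The 6 spleen columns are the brightest in all rows but those of Aurka, Cdc20 and E2f1, where the lowest spleen library lies under the highest muscle, liver or brain library. Within spleen, WT replicate 3 and Ctcf+/- replicate 1 are darker than the other 4 columns, and liver WT replicate 2, liver Ctcf+/- replicate 3 and kidney Ctcf+/- replicate 1 are brighter than their neighbours in the mitotic rows.

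The licensing genes Mcm2 to Mcm7, Cdc6 and Cdt1 were present in every tissue, and all but Cdc6 reached at least 0.237 FPKM on average in each WT tissue. Mcm2 (ENSMUSG00000002870, GRCm38 chromosome 6, 88883474 to 88898780, minus strand), a subunit of the helicase, read 15.2, 19.8 and 7.8 FPKM in the 3 WT spleen libraries. In WT muscle, the tissue with the next highest level, it read 1.29, 1.69 and 2.07 FPKM, and in WT brain, the lowest, 0.56, 0.559 and 0.722 FPKM. The spleen values did not overlap those of any other tissue, and the difference from muscle was called (adjusted p = 1.52e-07). Cdc6, which loads the helicase, had the widest gap of the licensing genes, with a mean of 8.07 FPKM in WT spleen and 0.0841 to 0.135 FPKM in the other WT tissues, a log2 difference from their mean of 6.25 ± 0.26 (SE).

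Pcna (ENSMUSG00000027342, chromosome 2, 132249162 to 132253314, minus strand), the sliding clamp of the replication fork, was the most abundant of the 36 in WT spleen and had the smallest difference. It read 111, 114 and 60.4 FPKM in WT spleen. In the other WT tissues its means were 17.6 ± 1.26 in kidney, 16.1 ± 2.32 in liver, 13.4 ± 1.14 in muscle and 12.1 ± 0.76 FPKM in brain (SD, n = 3), and no neighbouring pair in that order was called. The log2 difference of spleen from the mean of the other 4 was 2.64 ± 0.13 (SE). PCNA also serves in DNA repair, as background. Rrm2, the small subunit of the enzyme that makes deoxynucleotides, was the second most abundant, at 82.8, 89.6 and 22.9 FPKM in WT spleen against means of 0.498 to 3.38 FPKM elsewhere.

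The transcription factors were less abundant. E2f1 (ENSMUSG00000027490, chromosome 2, 154559407 to 154569892, minus strand) read 9.9, 9.35 and 3.4 FPKM in WT spleen and 2.95, 2.7 and 3.05 FPKM in WT brain, so that the lowest spleen library lay just above the highest brain library. The difference between these tissues was called (adjusted p = 0.00316). Foxm1 (ENSMUSG00000001517, chromosome 6, 128362967 to 128376146, plus strand), the forkhead factor of G2 and mitosis, read 3.94, 5.33 and 1.92 FPKM in WT spleen. Its WT means elsewhere ran from 0.378 FPKM in liver to 0.0776 FPKM in muscle, and no neighbouring pair among these 4 tissues was called. Mybl2, the MYB factor that works with MuvB, averaged 7.52 FPKM in WT spleen and 0.0399 to 0.462 FPKM elsewhere.

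Genes of mitosis differed more between spleen and the rest than genes of S phase. The median log2 difference of WT spleen from the mean of the other 4 tissues was 5.41 for the 23 cyclin, kinase, spindle and chromosome genes, with a range of 3.12 to 7.25. For the 10 licensing and DNA synthesis genes it was 3.81, with a range of 2.64 to 6.25. The ranges overlap, and no test was made of one set against the other. Cdk1 (ENSMUSG00000019942, chromosome 10, 69336635 to 69352938, minus strand), the kinase that starts mitosis, read 20.2, 19.4 and 5.3 FPKM in WT spleen and 1.32, 3.37 and 0.794 FPKM in WT liver, the next tissue. Ccnb1 (ENSMUSG00000041431, chromosome 13, 100778650 to 100786570, minus strand), its cyclin B partner, read 11.9, 15.6 and 4.56 FPKM in WT spleen and 0.311, 1.87 and 0.133 FPKM in WT liver. For both genes every spleen library was above every liver library, with adjusted p = 2.59e-04 and 2.28e-04.

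Mki67 (ENSMUSG00000031004, chromosome 7, 135689784 to 135716361, minus strand), whose protein coats mitotic chromosomes and is the usual marker of dividing cells in histology, had the largest difference of the 36. It read 63.1, 76.7 and 17 FPKM in WT spleen. WT liver read 0.71, 1.71 and 0.61 FPKM, WT kidney 0.381, 0.322 and 0.326, WT brain 0.212, 0.23 and 0.235, and WT muscle 0.177, 0.218 and 0.0368. The lowest spleen library was thus far above the highest library of any other tissue, and the log2 difference from the mean of the other 4 was 7.25 ± 0.38 (SE) in WT and 6.52 ± 0.37 (SE) in Ctcf+/-. Below spleen, liver was called above kidney (adjusted p = 0.0285), while kidney, brain and muscle were not told apart as neighbours. Top2a (ENSMUSG00000020914, chromosome 11, 98992943 to 99024189, minus strand), the topoisomerase that untangles replicated chromosomes, read 23.7, 32.5 and 9.69 FPKM in WT spleen and averaged 0.0628 FPKM in muscle to 0.745 FPKM in liver, a log2 difference of 6.35 ± 0.33 (SE).

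The lowest of the 36 in WT spleen were checkpoint and centromere genes. Ttk, a spindle checkpoint kinase, averaged 1.63 FPKM there, Cenpf, a kinetochore protein, 3.35 FPKM and Bub1, another checkpoint kinase, 3.73 FPKM. All 3 were still called above every other tissue. Aurka and E2f1 came closest to another tissue. Aurka, the Aurora kinase of the spindle poles, read 21.6, 20.9 and 5.53 FPKM in WT spleen and 4.8, 4.61 and 5.72 FPKM in WT muscle, so its lowest spleen library lay within the muscle range, although the difference was called (adjusted p = 0.00568).

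**Figure D2:**
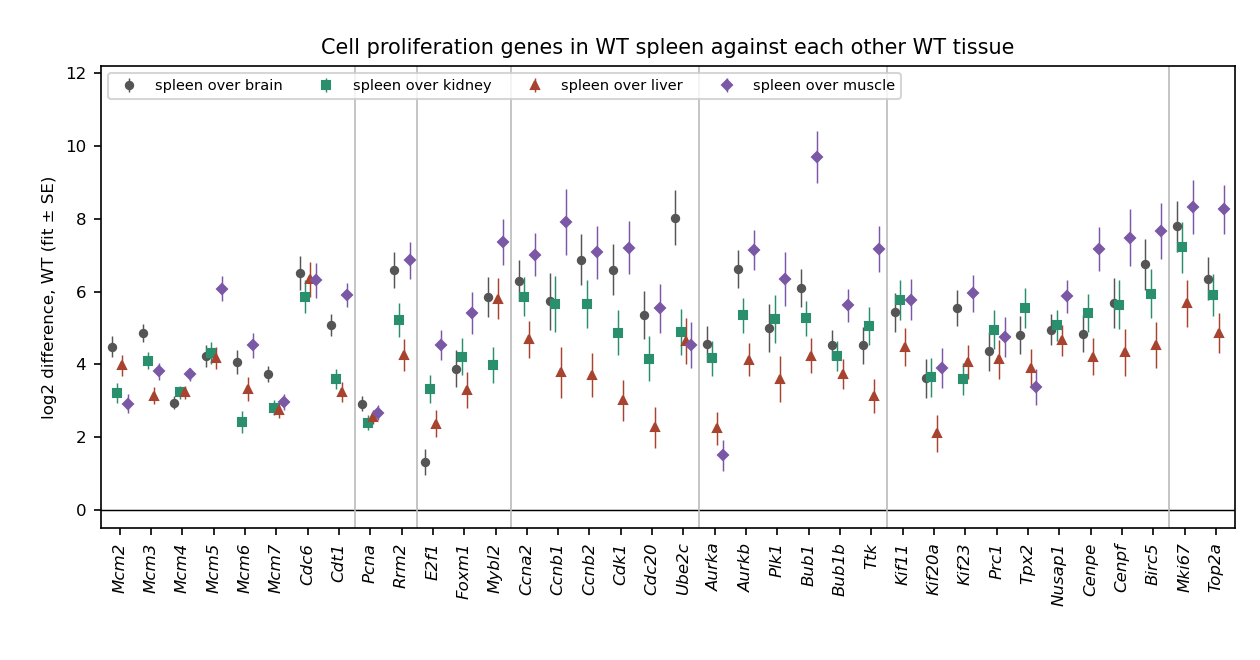
Points give the fitted log2 difference of WT spleen from WT brain, kidney, liver and muscle for each of the 36 genes, with bars of 1 SE, and grey lines separate the roles. Every point lies above 0, muscle differences (diamonds) are the largest for most mitotic genes, and E2f1 against brain and Aurka against muscle are the smallest.

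Below spleen, liver was the second highest WT tissue for 26 of the 36 genes, kidney for 5, muscle for 3 and brain for 2, and muscle was the lowest for 27. These places rest on group means and were not counted over all genes. WT replicate 2 was the highest of all liver libraries for 26 of 36 genes (21.2% of all genes). Liver was called above muscle for 28 genes (31.9% of all genes) and below it for Mcm2 alone (32.3%). Liver was called above brain for 20 (33.3%) and below it for E2f1 alone (39.9%), and above kidney for 16 (24.7%) and below it for Mcm2, Mcm6 and Mybl2 (29.4%). Leaving out any WT library in turn left 22 to 28 genes called for liver over muscle. Kidney was called above muscle for 18 genes (35.9%) and below it for Aurka and Tpx2 (28.5%), and kidney was above brain for 12 (36%) and below it for E2f1 (35.5%). Brain was called above muscle for 14 genes (39.9%) and below it for 6 (32.5%), and above it for 7 without muscle WT replicate 1 or without muscle WT replicate 3. The order below spleen also moved with scaling and test. With libraries scaled by total count, brain was above muscle for 30 genes, kidney above muscle for 32, kidney above liver for 10 and brain above liver for 6, and the mean of log2(CPM + 1) over the 36 genes was 2.09 in WT kidney and 1.83 in WT liver, in place of 1.85 and 2.31. With limma-voom brain was above muscle for 6 genes and kidney above muscle for 7. The share of all genes called was not computed for these scalings, tests or left-out libraries. Scaling by total count moves all genes of a tissue, so its counts are no result about the 36 genes alone.

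Several genes departed from this order. Aurka in WT muscle (5.04 ± 0.59 FPKM, SD, n = 3) was called above kidney and brain by 2.66 ± 0.46 and 3.06 ± 0.47 (SE) on the log2 scale. Tpx2, which recruits and activates Aurora A on the spindle, followed the same pattern, with 1.38, 1.34 and 0.995 FPKM in WT muscle and called differences of 2.15 ± 0.49 and 1.42 ± 0.47 (SE). The remaining mitotic kinases did not: Aurkb, Plk1, Bub1, Bub1b and Ttk were at or under 0.156 FPKM on average in WT muscle, their lowest tissue in each case. E2f1 in WT brain was called above kidney, liver and muscle by 2 ± 0.36, 1.04 ± 0.36 and 3.2 ± 0.4 (SE), and the Ctcf+/- libraries gave 1.75 ± 0.31, 1.11 ± 0.31 and 2.83 ± 0.34. Mcm6 in WT kidney, at 5.14, 5.15 and 4.18 FPKM, was called above liver by 0.91 ± 0.3 and above brain by 1.65 ± 0.3 (SE), with all 3 kidney libraries above those of liver and brain.

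The promoters of the S-phase and the mitotic genes differ in the short motifs they hold, and a link of these motifs to the levels described here was not tested. RefSeq windows of 250 bases before to 50 bases after the start of transcription (build GRCm38.p6) were on hand for 30 of the 36 genes, all but Mcm4, Tpx2, Foxm1, Ccna2, Kif20a and Aurkb. The bases from 160 to 1 before the start are printed 5′ to 3′ on the strand of the gene, with matches in capitals. TTTGAA or TTCGAA (or TTCAAA on the other strand) is the cell cycle genes homology region, CHR, known as the MuvB site; CCAAT (or ATTGG) is the NF-Y box; and TTTGGCGC, TTTCCCGC, TTTCGCGC and TTTGCCGC, searched on both strands, are E2F sites. A run of capitals longer than its motif holds overlapping matches.
Cdk1, chr10:69352913-69353072, minus strand: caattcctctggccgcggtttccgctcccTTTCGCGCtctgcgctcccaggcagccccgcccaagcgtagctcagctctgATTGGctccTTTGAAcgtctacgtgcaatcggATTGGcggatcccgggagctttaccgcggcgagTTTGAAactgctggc
Mki67, chr7:135716380-135716539, minus strand: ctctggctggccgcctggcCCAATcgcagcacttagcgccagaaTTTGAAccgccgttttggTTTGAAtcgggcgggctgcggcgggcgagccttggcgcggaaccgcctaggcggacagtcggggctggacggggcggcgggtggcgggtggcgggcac
Top2a, chr11:99024190-99024349, minus strand: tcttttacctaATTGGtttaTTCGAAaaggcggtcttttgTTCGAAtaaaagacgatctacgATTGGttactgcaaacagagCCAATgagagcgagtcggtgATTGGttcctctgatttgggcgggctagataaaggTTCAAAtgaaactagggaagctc
Cdc20, chr4:118437344-118437503, minus strand: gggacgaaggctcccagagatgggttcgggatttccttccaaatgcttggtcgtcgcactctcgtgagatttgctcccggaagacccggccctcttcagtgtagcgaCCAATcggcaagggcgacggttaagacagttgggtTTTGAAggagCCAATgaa
Mcm6, chr1:128359706-128359865, minus strand: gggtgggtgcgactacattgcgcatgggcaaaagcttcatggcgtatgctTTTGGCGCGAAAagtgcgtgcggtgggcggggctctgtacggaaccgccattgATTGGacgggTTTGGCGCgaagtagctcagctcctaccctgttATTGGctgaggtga
Mcm5, chr8:75109349-75109508, plus strand: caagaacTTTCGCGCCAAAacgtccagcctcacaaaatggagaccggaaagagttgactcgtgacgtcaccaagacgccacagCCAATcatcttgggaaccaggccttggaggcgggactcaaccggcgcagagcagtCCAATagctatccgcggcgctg
The CHR was present in the 300-base window of 15 of 19 cyclin, kinase, spindle and chromosome genes (78.9%), of 2 of 9 licensing and DNA synthesis genes (22.2%) and of 21.7% of the 27025 genes in the promoter table. CCAAT was present in 89.5%, 77.8% and 41.1% of the same sets. An E2F match was present in 1 of the 19 (Cdk1), in 6 of the 9 (Mcm3, Mcm5, Mcm6, Mcm7, Cdc6 and Cdt1) and in 2.6% of all genes. These are matches of letters, with no measurement of binding.

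In spleen, liver and kidney single libraries stood apart for most of the 36 genes at once, while in brain no library was the highest for more than 9 of them. In muscle WT replicate 3 was the lowest library for 22 of the 35 genes tested. The score of a library is the mean of log2(CPM + 1) over the 36 genes and is used as a description only. In spleen it was 6.09, 6.34 and 4.86 in WT and 4.92, 5.98 and 5.73 in Ctcf+/-. Liver read 2.11, 3.02 and 1.81 in WT and 1.93, 2.09 and 2.82 in Ctcf+/-, kidney 1.87, 1.81 and 1.88 in WT and 2.61, 1.95 and 1.98 in Ctcf+/-. Brain lay between 1.48 and 1.57 and muscle between 1.15 and 1.71. The SD of the score was at most 0.0403 in both brain groups and WT kidney and at least 0.13 in the other groups. The median coefficient of biological variation, edgeR's estimate of the spread between libraries of a group beyond counting error, was 0.432 for these genes in liver, 0.409 in spleen, 0.328 in muscle, 0.297 in kidney and 0.148 in brain, against 0.192, 0.283, 0.175, 0.152 and 0.114 over all genes tested.

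**Figure D3:**
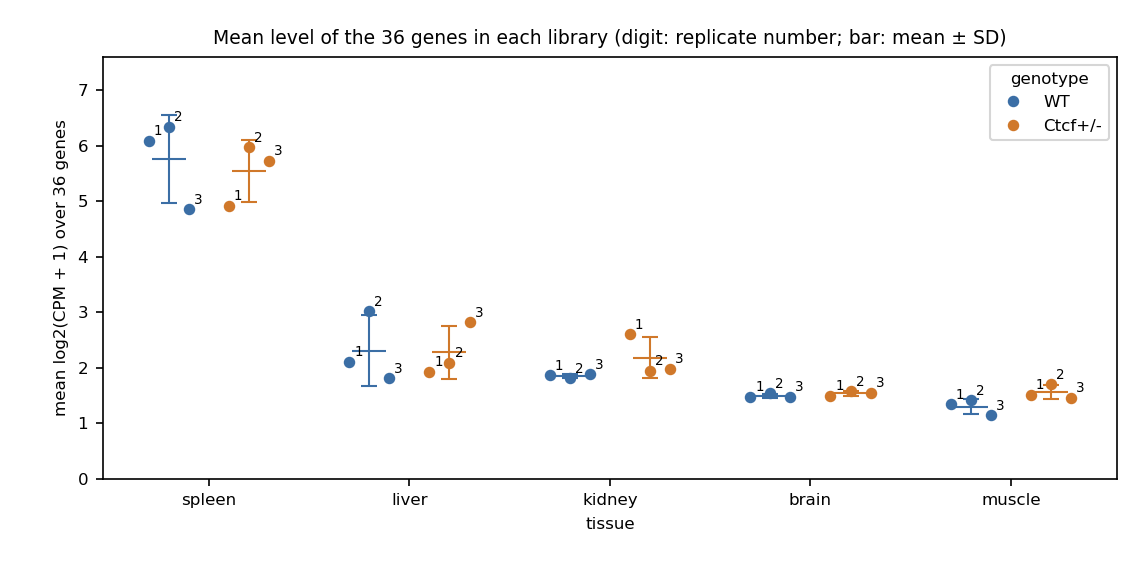
Each point is the mean of log2(CPM + 1) over the 36 genes in 1 library, by tissue and genotype, with its replicate number, and the bars give the mean ± SD of 3 libraries. Spleen libraries lie between 4.86 and 6.34 and all others at or under 3.02, and kidney Ctcf+/- replicate 1, at 2.61, stands above the 5 other kidney libraries.

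In spleen, WT replicate 3 and Ctcf+/- replicate 1 were the 2 lowest libraries for 36 of 36 genes, while that pair was lowest for 11.8% of all genes. Mki67 read 17 FPKM in the first and 21.7 in the second, and 53.9 to 76.7 FPKM in the other 4. Markers of red-cell precursors moved the same way. The summed CPM of 12 such genes, among them Alas2, Slc4a1 and Klf1, was 6439, 7464 and 1432 in WT and 1854, 5116 and 4354 in Ctcf+/- spleen. All 12 were lowest in the same 2 libraries, and the 6 libraries fell in the same order by this sum as by the score. None of the 12 was at 0, and 1 of them, Tfrc, is also raised in other dividing cells. The B-cell marker sum did not separate the 2 libraries in this way, at 3854 CPM in WT replicate 3 and 2722 in Ctcf+/- replicate 1 against 3008 to 3539 in the others. The neutrophil marker sum was 471 CPM in the first and 3661 CPM in the second. The part of red-cell precursors in the spleen values was not tested.

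**Figure D4:**
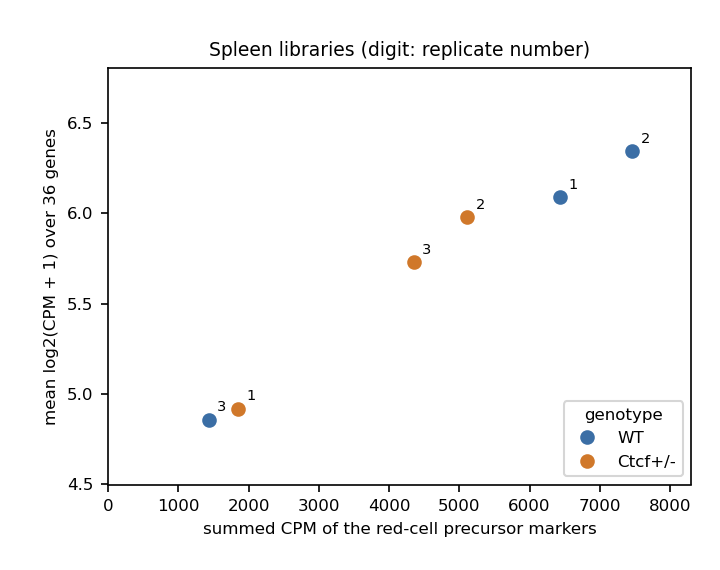
The score of the 36 genes (vertical axis, mean log2(CPM + 1)) is plotted against the summed CPM of 12 red-cell precursor markers (horizontal axis) for the 6 spleen libraries, coloured by genotype and marked with the replicate number. WT replicate 3 and Ctcf+/- replicate 1 sit together at the lower left, at 1432 and 1854 CPM, and WT replicate 2 is highest on both axes; the 2 measures share libraries and scaling.

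In liver, WT replicate 2 and Ctcf+/- replicate 3 were the 2 highest libraries for 30 of 36 genes, while that pair was highest for 7.76% of all genes. They were so for 23 of 23 cyclin, kinase, spindle and chromosome genes, 5 of 10 licensing and DNA synthesis genes and 2 of 3 transcription factors. Cdc20, the activator of the anaphase-promoting complex, read 2.13, 9.23 and 1.55 FPKM in WT and 1.37, 2.07 and 9.94 FPKM in Ctcf+/- liver. Mcm7, a helicase subunit, read 4.71, 5.57 and 4.23 against 4.73, 5.26 and 5.57 FPKM, a narrower range with the same 2 libraries highest. Rrm2 read 5.36 and 3.18 FPKM in these 2 libraries and 1.37 to 2.5 FPKM in the other 4. The macrophage marker sum was highest in WT replicate 2, at 527 CPM with 6 of 6 genes among the 2 highest there, but Ctcf+/- replicate 3, at 301 CPM, lay within the 286 to 331 CPM of the other 4 libraries.

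In kidney, Ctcf+/- replicate 1 was the highest library for 27 of 36 genes (13.4% of all genes), namely for 22 of the 23 cyclin, kinase, spindle and chromosome genes and 3 of the 10 licensing and DNA synthesis genes. Ccnb1 read 0.223, 0.191 and 0.203 FPKM in WT and 0.868, 0.219 and 0.221 FPKM in Ctcf+/- kidney, whereas Pcna read 16.3, 18.8 and 17.8 against 16.3, 16.5 and 18.2 FPKM. No blood marker list was raised in this library to a like degree. Its red-cell precursor sum was 131 CPM, inside the 123 to 155 CPM of the other 5, its T-cell sum 5.73 CPM, inside 4.44 to 7.18, and its macrophage sum 115 CPM, inside 88.1 to 128.

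No member of the list was called between genotypes in any tissue. The genotype comparison was fitted in each tissue on 6 libraries with edgeR's quasi-likelihood test, and it called 0.242% of all genes in spleen, 0.0249% in muscle, 0.0211% in kidney, 0.0193% in liver and 0.0157% in brain. At an unadjusted p under 0.05 there were 12 of 36 genes in kidney (6.44% of all genes), 6 of 35 in muscle (6.45%), 1 of 36 in brain (2.96%), 0 of 36 in liver (4.56%) and 0 of 36 in spleen (3.52%). DESeq2 called 1 gene in kidney, Ube2c (adjusted p = 0.0499), and none elsewhere, and limma-voom called none. Since the 36 genes move together between libraries, counts of members in 1 direction are not independent.

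In kidney the members lay higher in Ctcf+/- mice without passing the adjusted test, and 1 library carried most of it. The median log2 fold change of Ctcf+/- over WT was 0.65, and 33 of 36 were above 0 (50.1% of all genes). The split by role was wide: the median was 0.84 for the 23 cyclin, kinase, spindle and chromosome genes and 0.03 for the 10 licensing and DNA synthesis genes. Ube2c, the ubiquitin-conjugating partner of the anaphase-promoting complex, read 1.62, 1.35 and 1.36 FPKM in WT and 3.45, 1.65 and 2.57 FPKM in Ctcf+/- kidney (log2 fold change 0.82 ± 0.25 SE, adjusted p = 0.529). Ube2c overlaps the muscle gene Tnnc2. The muscle marker sum was 124 CPM in WT replicate 3, 158 CPM in Ctcf+/- replicate 3 and at most 1.47 CPM in the other kidney libraries. The part of these traces in the Ube2c values was not tested. Plk1, the Polo kinase, read 0.353, 0.379 and 0.386 against 1.17, 0.548 and 0.55 FPKM (1.02 ± 0.32 SE, adjusted p = 0.545). Cdk1 read 0.488, 0.519 and 0.488 against 1.42, 0.65 and 0.743 FPKM (0.91 ± 0.29 SE, adjusted p = 0.572). In these 3 genes all Ctcf+/- libraries lay above all WT libraries, as they did for 9 of 36 genes (6.14% of all genes), and Mcm4 was the sole member with all Ctcf+/- libraries below (5.28%). Without Ctcf+/- replicate 1 the median fell to 0.17, with 4 genes at an unadjusted p under 0.05 (share of all genes not computed for that fit).

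In muscle 33 of the 35 genes tested were above 0 (48.4% of all genes), with a median log2 fold change of 0.47, and the levels were low. The median was 0.69 for the 22 cyclin, kinase, spindle and chromosome genes tested, with 21 above 0. For the 10 licensing and DNA synthesis genes it was 0.14, with 9 above 0. WT replicate 3 was the lowest library for 22 of the 35 (20.6% of all genes) and Ctcf+/- replicate 2 the highest for 19 (14.1%). Without the first the median of all members was 0.35, and 4 genes had an unadjusted p under 0.05. That number was 2 when Ctcf+/- replicate 1 or Ctcf+/- replicate 2 was left out and 12 when WT replicate 2 was. The share of all genes was not computed for these fits, so these numbers cannot be set against it. Ttk did not pass the filter on low counts there, and Bub1 passed it through the Ctcf+/- libraries alone. The direction of Bub1 in the test within muscle was therefore not free. Its ratio and its place in the counts of the 35 genes are description only. Bub1 had 1, 2 and 0 counts in the WT libraries and 10, 17 and 12 in the Ctcf+/- libraries, which gives a ratio of 13.8 with a 95% counting interval of 4.38 to 69.7 (exact binomial, counting error only). Its adjusted p in edgeR's quasi-likelihood test was 0.261. It was called when all 30 libraries were fitted together (adjusted p = 0.037). Bub1b, a checkpoint kinase of the same family, read 0.13, 0.171 and 0.149 FPKM in WT and 0.342, 0.329 and 0.241 FPKM in Ctcf+/- muscle (1.02 ± 0.27 SE, adjusted p = 0.438). Top2a read 0.0634, 0.105 and 0.0196 against 0.166, 0.255 and 0.111 FPKM (1.48 ± 0.55 SE, adjusted p = 0.659). All Ctcf+/- libraries lay above all WT libraries for these 3, and also for Ccna2, Ccnb2, Cdk1, Cenpe, Cenpf and Mki67, 9 of 35 in all (5.91% of all genes). Tpx2 read 1.38, 1.34 and 0.995 FPKM in WT and 2.37, 1.98 and 1.35 FPKM in Ctcf+/- muscle (0.61 ± 0.23 SE, adjusted p = 0.665), with 1 library overlapping, and Aurka also overlapped between genotypes. The macrophage marker sum was 24.3, 28 and 16.2 CPM in WT and 39, 49.7 and 24.8 CPM in Ctcf+/- muscle, with 5 of 5 genes tested above 0. Of the 6 genes, Marco was at 3 counts or fewer in all Ctcf+/- muscle libraries. Other marker sums also had higher means in Ctcf+/- muscle. They were 104 against 72.5 CPM for germinal-centre B cells and 7.15 against 4.59 for megakaryocytes. Oligodendrocyte precursor markers gave 38.9 against 31.3 CPM and satellite cell markers 60.4 against 54.4. Endothelial and plasma-cell sums were lower, at 390 against 416 and 112 against 114 CPM. The part of these cell types in the muscle values was not tested.

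In spleen all 36 genes had a fold change under 0, where 48.9% of all genes were above 0, with a median of -0.26. The groups overlapped for every one of them (6.65% of all genes had groups apart). Rrm2, with the smallest unadjusted p, read 82.8, 89.6 and 22.9 FPKM in WT and 19, 65.5 and 50.1 FPKM in Ctcf+/- spleen (-0.54 ± 0.61 SE, adjusted p = 1). Plk1 and the cyclin gene Ccnb2 followed at -0.45 ± 0.51 and -0.44 ± 0.56 (SE). Both genotypes held a low library, and leaving out single libraries moved the median from -0.63 (without WT replicate 3) to 0.01 (without WT replicate 2). The 12 red-cell precursor markers also all lay under 0, with a median of -0.45.

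In liver the median was -0.05 and 13 of 36 genes were above 0 (47.6% of all genes), and the groups overlapped for each of them (8.97% of all genes had groups apart). Rrm2 read 2.27, 5.36 and 2.5 FPKM in WT and 1.38, 1.37 and 3.18 FPKM in Ctcf+/- liver (-0.78 ± 0.43 SE, adjusted p = 1). Mcm2 and Mcm4 came next in order of p, at 0.31 ± 0.17 and 0.31 ± 0.22 (SE). The median was -0.66 without Ctcf+/- replicate 3 and 0.43 without WT replicate 2, and 0.04 with both left out, so its direction changed with the libraries kept; it was also above 0 without Ctcf+/- replicate 1 or 2.

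In brain, where the libraries agreed most closely, the median was -0.01 and 17 of 36 genes were above 0 (48.2% of all genes). E2f1 read 2.95, 2.7 and 3.05 FPKM in WT and 3.55, 3.28 and 3.3 FPKM in Ctcf+/- brain (0.22 ± 0.08 SE, adjusted p = 1), and was the sole member whose groups did not overlap (7.83% of all genes had groups apart in either direction). Prc1, which bundles the microtubules of the late spindle, was at -0.3 ± 0.14 and Mcm5 at 0.21 ± 0.11 (SE). The labels do not say that replicate numbers pair WT with Ctcf+/- libraries. Same-numbered brain libraries deviated together (r = 0.209, 0.386 and 0.540), but Ctcf+/- replicate 1 also did so with WT replicate 2 (0.216). With the replicate as a block 4 genes had an unadjusted p under 0.05 (share of all genes not computed for that fit) and none was called.

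**Figure D5:**
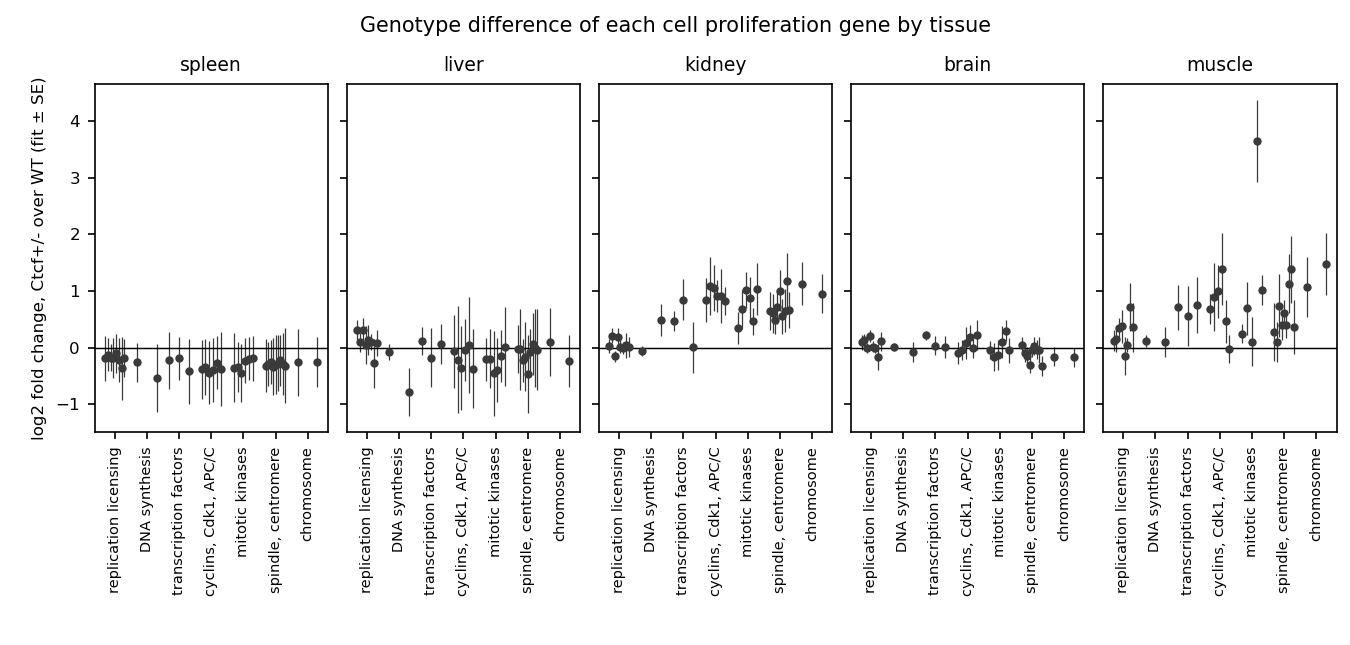
Points give the fitted log2 fold change of Ctcf+/- over WT for each gene tested, by role and tissue, with bars of 1 SE. Kidney cyclin, kinase, spindle and chromosome genes lie above 0 while kidney licensing genes lie close to 0, and in muscle 21 of 22 of the former lie above 0. Spleen points all lie under 0 within their bars, and the highest muscle point is Bub1, which rests on 3 WT counts.

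Across tissues, the genotype difference was not shown to vary for any of the 36 genes. The interaction of genotype with tissue, fitted on all 30 libraries, called none of them (0.758% of all genes), and 1 had an unadjusted p under 0.05 (6.66% of all genes), Bub1 (adjusted p = 0.229). A likelihood ratio test in DESeq2 called Bub1 (adjusted p = 0.00564). A genotype effect shared by the 5 tissues was also called for none (0.194% of all genes), none had an unadjusted p under 0.05 (5.91% of all genes) and DESeq2 called none. The median shared log2 fold change was 0.12 against 0.01 over all genes, with 33 of 36 above 0 (55% of all genes). E2f1 (0.26 ± 0.16 SE), Bub1b (0.27 ± 0.17) and Mki67 (0.37 ± 0.27) had the smallest p-values.

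Further cell-cycle genes outside the list were counted in the same way. Of 55 other mitosis genes 54 were called higher in WT spleen than in the mean of the other 4 tissues, all but Pttg1, the securin gene, at -0.4 ± 0.17 (SE). Of 35 other S-phase genes 34 were called higher there. Between genotypes none of either list was called in any tissue. In kidney 17 of 55 other mitosis genes and 5 of 35 other S-phase genes had an unadjusted p under 0.05, against 6.44% of all genes, with medians of 0.56 and 0.04. Without Ctcf+/- replicate 1 these counts were 0 of 55 and 1 of 35 and the medians 0.15 and -0.02. No share over all genes was computed for fits without a library, here or in muscle. With all libraries the smallest p-values were those of Dtl (0.96 ± 0.25 SE), Uhrf1, Dbf4, Kif18b, Troap and Espl1. In muscle the counts were 5 of 44 and 1 of 35, against 6.45% of all genes, and 6 of 51 and 0 of 35 without WT replicate 3. They were led by Cep55, which acts in the final separation of daughter cells (0.0268 FPKM in WT and 0.125 in Ctcf+/-, log2 fold change 2.18 ± 0.46 SE, adjusted p = 0.313), Ckap2 and Esco2 among the mitosis genes and by Pola1 among the S-phase genes. At such low levels a gene can pass the filter on low counts through the Ctcf+/- libraries alone, as Bub1 did. Whether these genes did so was not checked, so the muscle counts and fold changes are description only. In spleen 1 of 55 and 4 of 35 were above 0 and none had an unadjusted p under 0.05.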

How the data were processed

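The authors counted fragments per Ensembl 86 gene (GRCm38) with featureCounts 1.5.0-p3, unstranded and without multimapping or multiply overlapping fragments, per the file headers. The deposited counts were used whole; FastQC, STAR and DESeq2 stand in the submitters' processing notes without versions. The 36 genes and all other lists were chosen with earlier results of these data known. Counts were tested with edgeR 4.0.16 (quasi-likelihood test, TMM scaling, filterByExpr, Benjamini-Hochberg adjustment over all genes tested) in R 4.3.3, on 6 libraries per tissue for genotype, 15 for tissues and 30 for the interaction and shared effect, and tried on simulated counts. FPKM and CPM used TMM factors within a tissue, with tissues set by their mean factor over all 30 libraries; the score used factors over all 30 and a pseudocount of 1. Members shown library by library were fixed by role, the rest by the smallest p-values; 1 exception among the other S-phase genes is not reported here. DESeq2 1.42, limma 3.58.1, other scalings and filters, the replicate block and leaving out each library were alternatives. Shares over all genes were computed for the main fits only. Same-numbered WT and Ctcf+/- libraries had positive correlations in brain (r = 0.209, 0.386 and 0.540) and kidney (0.211, 0.193 and 0.212). They were also positive in liver (0.0502, 0.122 and 0.279) and muscle (0.084, 0.174 and 0.257), but not throughout spleen. In brain, liver and muscle some pairs of unlike number were as high.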

Additional observations from a re-analysis of the deposited data

How the results depend on the processing

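Direction and call held for most results under the alternatives. Of 676 recomputed values 640 were classed as the same, 34 moved, 2 passed the threshold and no called result changed direction. A value was the same if it stayed on its side of the threshold or within the spread between replicates. Counts of called genes were the same if within a set fold of the main count, so 22 to 28 for liver over muscle did not count as moved. The medians of liver, spleen and brain, which rest on no call, changed sign under some of the alternatives, as given next. In spleen against each other tissue and against their mean, leaving out each WT library in turn gave 36 to 36 genes called, and requiring 10 counts in every library left 25 genes, all called. Members called for genotype numbered 0 in every tissue, 0 to 0 with single libraries left out, except 1 in kidney with DESeq2 (Ube2c, log2 fold change 0.82) and 1 in muscle with all 30 libraries in a single fit (Bub1, 3.71); the interaction test called 1 with DESeq2. The cause was not tested. Single libraries left out moved the median log2 fold change over -0.66 to 0.43 in liver, -0.63 to 0.01 in spleen, 0.17 to 0.84 in kidney, 0.35 to 0.66 in muscle and -0.03 to 0.03 in brain, and the single fit of 30 libraries gave 0.0579 in brain; the cause was not tested. Chosen after seeing the data, as were the counts of other cell-cycle genes without single libraries, leaving out the 2 low spleen libraries gave -0.38 and the 2 high liver libraries 0.04. With the replicate block, which pairs equal numbers though the labels do not, no member was called in any tissue (0 of 36 in kidney, median 0.53). In muscle 12 genes had an unadjusted p under 0.05 with this block, in place of 6, with no share over all genes computed for it. The same-numbered correlations there were 0.084, 0.174 and 0.257. In spleen the same-numbered correlations were -0.472, -0.220 and 0.473. Precision was limited by 3 libraries a group and, for the lowest genes in muscle, by few counts.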

Other observations

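Genes that govern entry into S phase, outside the 36, were found in both directions between tissues. They were counted together with the MuvB genes Lin9, Lin37, Lin52 and Lin54 and with Mybl1. Of the 30 genes of this joint list 21 were called higher and 6 lower in WT spleen than in the mean of the other 4 tissues, where 38% of all genes were called higher and 37.7% lower. E2f2, an activating E2F factor, averaged 47.9 FPKM in spleen and 0.166 to 1.28 FPKM elsewhere, and Cdkn2d, which inhibits the cyclin D kinases, was abundant in spleen too, at 71 FPKM against 3.56 to 26.3. Cdkn1c (p57) and Cdkn1a (p21), which block cyclin-dependent kinases, went the other way. Cdkn1c averaged 15.7 FPKM in WT muscle and 0.165 FPKM in WT spleen, a log2 difference of spleen from the mean of the other 4 of -4.86 ± 0.21 (SE), and Cdkn1a 36.8 and 1.74 FPKM, a difference of -2.68 ± 0.46 (SE). Ccnd1, cyclin D1, was lower in spleen as well, at 3.47 FPKM against 19.4 in kidney and 21.7 in liver, though not than in muscle (2.33). Between genotypes none of these genes was called; the smallest unadjusted p-values were those of Ccnd2 in liver (-0.53 ± 0.14 SE, adjusted p = 0.685) and Cdkn1c in muscle (0.35 ± 0.1 SE, adjusted p = 0.469).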
